A study of Mus musculus with 12 samples.

Results

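The genes described here make the machinery that copies DNA and divides the cell. They were picked by gene symbol: the Mcm, Orc, Cdc and Rfc families, the A, B, D and E cyclins, the numbered cyclin-dependent kinases (Cdk), the subunits of DNA polymerases alpha, delta and epsilon, the Bub genes, the Aurora and Polo-like kinases, and Mybl2, Top2a, Mki67, Kif11 and Pcna. The arrays held 94 probes for 81 such genes, among 9212 genes that were measured by probes with 1 gene symbol. By role, 16 of the 81 act in licensing and firing of replication origins, 13 at the replication fork, 11 in G1 and in entry into S phase, and 20 in G2 and mitosis. The remaining 21 carry matching names but are known mainly for other work, such as the splicing factor Cdc5l, and were kept apart. No probe for cyclin B1 (Ccnb1) was named on these arrays.

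As background, a cell prepares its replication origins in G1, when the origin recognition complex and Cdc6 load the Mcm2 to Mcm7 helicase onto DNA. The kinases Cdc7 and Cdk2 and the cofactor Cdc45 then start the helicase, and polymerases with the sliding clamp Pcna and its loader (Rfc1 to Rfc5) copy the strands. Mouse embryonic stem (ES) cells divide fast, with a short G1 phase and high levels of replication and cyclin E transcripts, and cells that leave this state are known to lengthen G1. Genes of S phase are typically controlled by E2F factors at their promoters, and those of G2 and mitosis by the B-Myb and MuvB complex and NF-Y.

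The study followed undirected differentiation of R1 mouse ES cells on 12 arrays with 2 channels. In every array 1 channel held RNA of undifferentiated R1 cells, kept on gelatin with leukemia inhibitory factor in serum-containing medium. The other held RNA of embryoid bodies (EB, clumps of differentiating cells) that had been taken apart and plated in DMEM with serum and antibiotics for 4, 8, 15 or 21 days, with 3 arrays for each day. All groups thus derive from the R1 line, and ES cells served as the 1 control in every ratio. Nothing in the labels tells apart repeat arrays of 1 culture from arrays of different cultures. The p-values therefore cover the spread among these arrays alone, which may be technical. In such bulk RNA, fewer cells of a type and less RNA per cell cannot be told apart.

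Values are log ratios as deposited, read as log2 by convention because the labels do not settle the base, given as mean ± standard deviation (SD) over 3 arrays, and a gene was called where limma's p, adjusted over all 10689 features by Benjamini-Hochberg, was under 0.05. Positive values are taken to mean more RNA in EB than in ES cells, a direction that is likely but not settled. The sample titles and dye fields put Cy5 on ES RNA, whereas the label protocols put Cy3 on ES RNA and Cy5 on EB RNA. The deposited sign was kept because the ES cell marker Zfp42 was negative (-2.54 ± 0.02 at day 21) and the fetal serum protein Afp positive (3.598 ± 0.44), so these genes are no independent support for it. Should the reading be wrong, higher and lower change places throughout. Without a dye swap, any dye bias of a gene remains in its ratios against ES cells, and it cancels between days only where it was equal on all arrays.

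The arrays of a day differed in how well they matched. Correlations between arrays of a day over all features were 0.0059 to 0.20 at day 4, 0.35 to 0.62 at day 8, 0.39 to 0.82 at day 15 and 0.56 to 0.77 at day 21. The arrays were split by the sign of the leading principal component of the 1448 features without a gene name, after day means were removed. This gave a set of 7 and a set of 5. Such a split places arrays of every day in each set whatever the data. It does not by itself show batches, and the labels do not name the sets as batches. Array 3 of each day lay in the smaller set, as did array 2 of day 8, close to the border.

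No replication or division gene was called at day 4, and most of those called at the later days were lower in EB, with the cyclin Ccnd2 the largest exception. The ratios of all 4 days share the ES cells as control. The median ratio of the 81 genes was -0.01 at day 4, -0.08 at day 8, -0.12 at day 15 and -0.25 at day 21, while the median of all features stayed between -0.00107 and 0.00737. At day 4 limma called 0 of the 81 genes, as of all features (0.0% called), with 8 members and 1081 features at an unadjusted p under 0.05. At day 8 it called 1, Ccnd2, which was higher, where 2.28% of all features were called (1.06% lower and 1.23% higher). At day 15 it called 18 members, 16 lower and 2 higher, against 10.6% of all features (4.9% lower and 5.66% higher). At day 21 it called 39, 36 lower and 3 higher, against 18.7% of all features (9.93% lower and 8.78% higher).

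These counts rested on single arrays to a large degree. Without array 1 or array 2 of day 15 the day 15 count was 9 or 8, while that over all features fell from 1129 to 307 or 235. Without array 1 or array 2 of day 21 the day 21 count was 15 or 19, all of them among the 39. The day 21 count over all features fell from 1999 to 753 or 872. The day 8 count was 4 without array 2 of day 4, 2 without array 3 of day 4 and 3 without array 3 of day 15. The day 8 call of Ccnd2 was lost without array 2 (mean 1.04, adjusted p = 0.0647) or array 3 (mean 0.83, adjusted p = 0.133) of that day. Within the set of 7 arrays limma called 33 members at day 21, 31 of them among the 39, and within the set of 5, which has 1 array of day 21, it called 3.

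**Figure D1:**
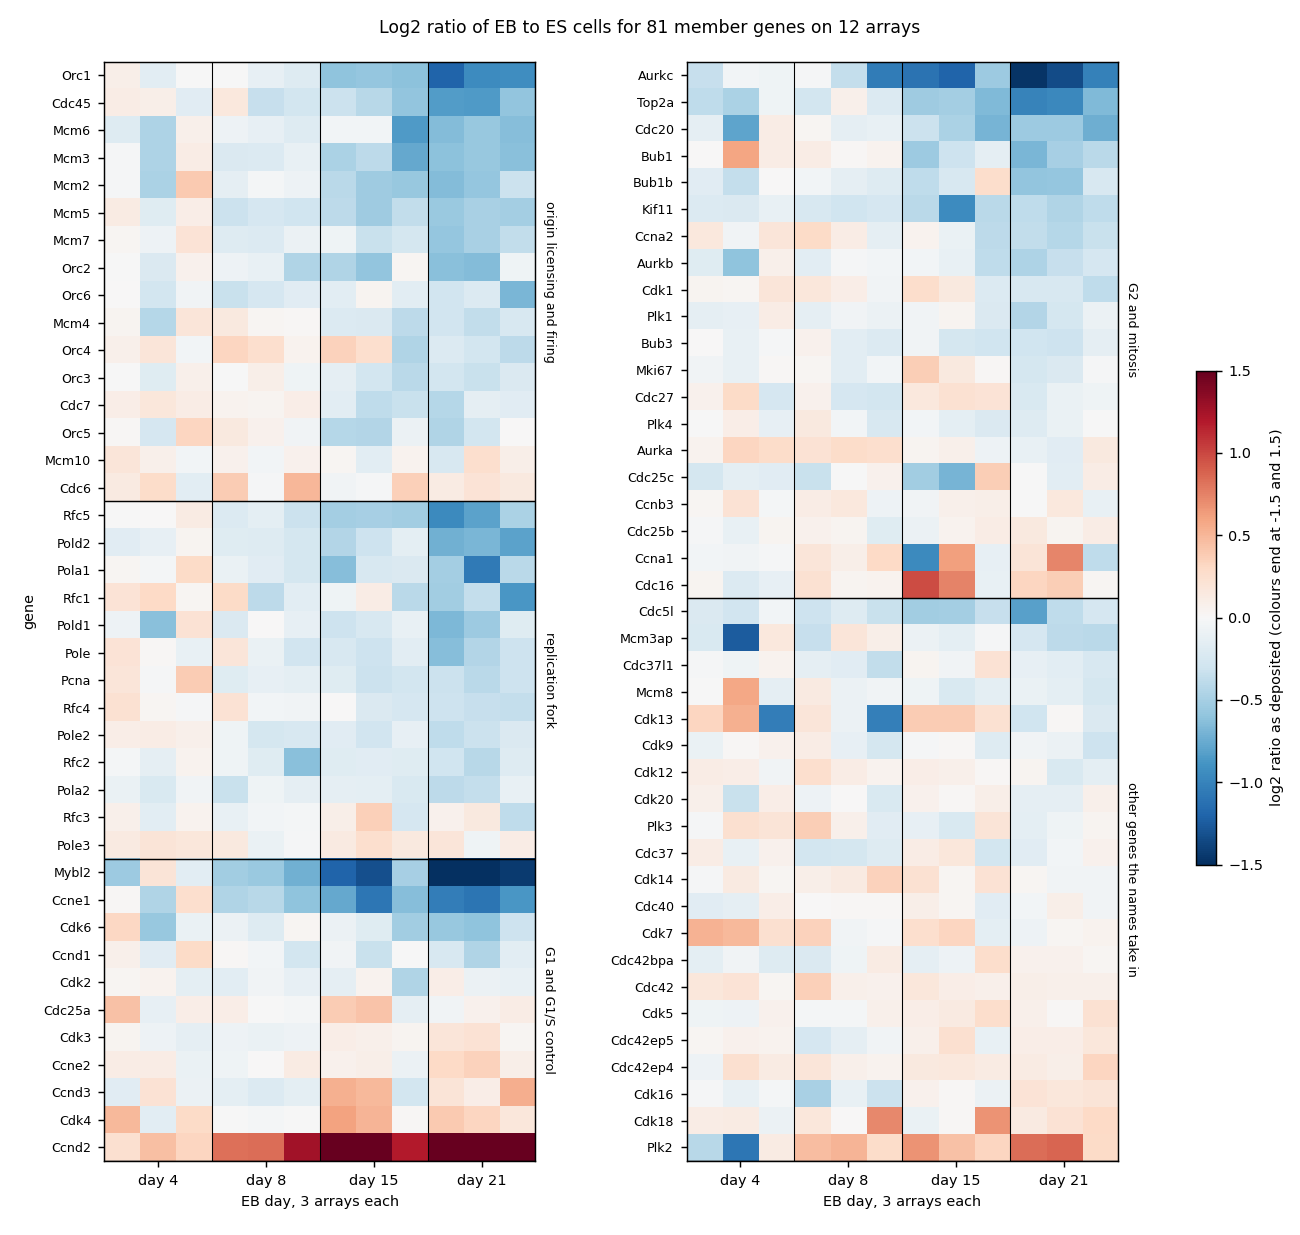
Log2 ratio of EB to ES cells for each of the 81 genes (vertical) on each of the 12 arrays (horizontal, 3 per day), grouped by role and ordered by the day 21 mean, with red for higher and blue for lower in EB. Blue deepens from day 4 to day 21 in the origin, fork and mitosis blocks, while most of the block of other genes is pale, with runs of colour in Plk2 (0.67 at day 21) and Cdc5l (-0.48); Ccnd2 is red on all 12 arrays.

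The 29 replication genes moved from a median of 0.01 at day 4 to -0.11, -0.26 and -0.39 at days 8, 15 and 21. Limma called 9 of them lower at day 15 and 22 lower at day 21, and none higher at any day. Of all features, 4.9% were called lower and 5.66% higher at day 15, and 9.93% lower and 8.78% higher at day 21. On the 3 arrays of day 21 their median was -0.45, -0.40 and -0.33, and on those of day 4 it was 0.04, -0.13 and 0.07. The day 21 medians lay below those of every day 4, day 8 and day 15 array. The 20 genes of G2 and mitosis had medians of -0.05, -0.06, -0.14 and -0.26 over the 4 days, with 4 called lower and 1 higher at day 15 and 10 lower at day 21. Without array 1 of day 21 the day 21 counts were 9 of the replication genes and 3 of the mitosis genes, and without array 2 they were 11 and 4. Under quantile normalization the day 21 counts were 12 and 4, and under scaling 10 and 5. Without array 1 of day 15 the lower counts at day 15 were 4 and 2, and without array 2 they were 3 and 2. Without array 3 of day 15, 6 replication genes were called. Whether the replication and mitosis genes differed from each other was not tested.

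**Figure D2:**
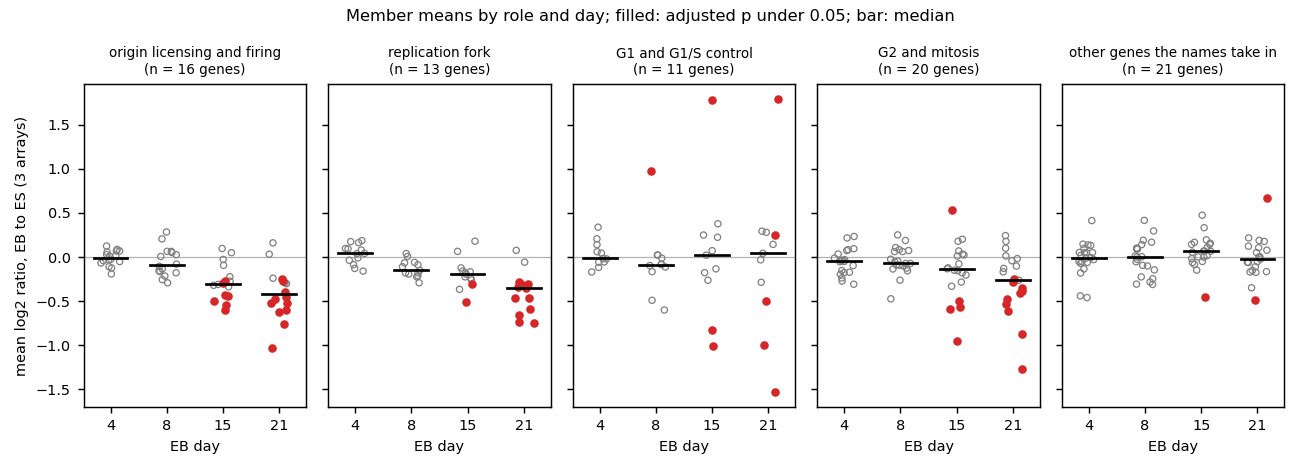
Mean log2 ratio of EB to ES (vertical) for each member (points, mean of 3 arrays) by EB day (horizontal) in the 5 role groups, with called genes filled and the group median as a bar. The bars of the origin and fork panels fall to -0.42 and -0.35 at day 21 and that of the mitosis panel to -0.26, while the bars of the G1 and other panels stay near 0.

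Origin genes come first in the order of replication. The promoters of Orc1 and Mcm6, and of the fork gene Pola1, are shown because the E2F-type cores they hold were found in a larger share of replication members than of all genes on the array. They are the 180 bases before the RefSeq start site on GRCm38.p6, read 5′ to 3′ along the gene. Capitals mark E2F-type cores and CCAAT boxes on either strand. The core was searched as TTGGCGC, in a second form as TTCGCGC and in a last form as TTCCCGC, each with its reverse complement, and the box as CCAAT with its reverse complement. A core on each strand can overlap, as in Mcm6. The Orc1 window is chr4:108579274-108579453 on the plus strand, the Mcm6 window chr1:128359706-128359885 on the minus strand and the Pola1 window chrX:93632156-93632335 on the minus strand.
Orc1: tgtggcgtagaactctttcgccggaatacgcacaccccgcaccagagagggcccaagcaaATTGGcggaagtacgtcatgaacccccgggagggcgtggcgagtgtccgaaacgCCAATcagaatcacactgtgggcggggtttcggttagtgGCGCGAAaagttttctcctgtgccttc
Mcm6: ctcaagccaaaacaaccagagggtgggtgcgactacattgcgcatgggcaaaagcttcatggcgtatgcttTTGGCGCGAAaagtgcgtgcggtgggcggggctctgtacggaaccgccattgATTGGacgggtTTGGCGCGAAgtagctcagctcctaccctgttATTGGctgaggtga
Pola1: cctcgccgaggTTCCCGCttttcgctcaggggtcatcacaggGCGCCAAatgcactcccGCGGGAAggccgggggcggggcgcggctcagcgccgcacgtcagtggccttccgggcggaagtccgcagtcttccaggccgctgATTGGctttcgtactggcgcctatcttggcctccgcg

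In Orc1 the E2F-type core lay 27 to 21 bases before the start, on the other strand. In Mcm6 pairs of overlapping cores lay 109 to 100 and 46 to 37 bases before the start. Over windows from 250 bases before the start to 50 after, an E2F-type core was found in 18 of 32 promoters of replication members (56.2%). It was found in 22.2% of promoters of mitosis members and 11.6% of the 9275 promoters of genes on the array. By call, it was found in 40.5% of promoters of members called lower at day 21 and 27.3% of those of the other members. The windows of Rfc5, Cdc45 and Mybl2, called lower, held no such core, while that of Cdc6, not called, held 1. A link between the core and the ratios was not tested. Promoters of 70 of the 81 genes were in the RefSeq table. Shares count promoters, not genes: the 32 of replication members belong to 26 genes and the 18 of mitosis members to 17. Windows of 1 gene can overlap and hold the same site, as those of Cdc7 do. A match is only a run of letters in this window, and binding was not measured here.

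Of the 16 origin genes, 7 were called lower at day 15, where 4.9% of all features were, and 11 at day 21, where 9.93% were. The day 15 count was 3, 2 and 4 without arrays 1, 2 and 3 of that day, and the day 21 count was 6 without array 1 or array 2 of that day and 6 under scaling. Orc1, the largest subunit of the origin recognition complex, stood at 0.09, -0.16 and 0.00 on the arrays of day 4 and at -0.01, -0.12 and -0.19 on those of day 8. It stood at -0.61, -0.58 and -0.62 at day 15 and at -1.20, -0.95 and -0.93 at day 21. No day 15 or day 21 array overlapped those of day 4 or day 8, and every day 21 array was below every day 15 array. Orc1 averaged -0.60 ± 0.02 at day 15 (adjusted p = 7.40e-04) and -1.03 ± 0.15 at day 21 (adjusted p = 1.08e-05). Of its partners, Orc2 (-0.45 ± 0.33, with array 3 at -0.07), Orc3 (-0.27 ± 0.06) and Orc6 (-0.39 ± 0.25) were called lower at day 21. The call of Orc2 was lost without array 1 of day 4, array 2 of day 8 or array 1 or 2 of day 21, that of Orc3 without any array of day 21 and that of Orc6 without array 3 of day 21, with adjusted p up to 0.228, 0.151 and 0.101. Orc4 (-0.29, adjusted p = 0.129) and Orc5 (-0.24, adjusted p = 0.174) did not pass.

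The Mcm2 to Mcm7 genes encode the 6 subunits of the helicase ring. Their joint median was -0.60, -0.52 and -0.44 on the arrays of day 21, but 0.01, -0.44 and 0.15 on those of day 4, where array 2 stood apart with all 6 genes below 0 and array 3 had all 6 above 0. At day 21 all but Mcm4 (-0.30 ± 0.07, adjusted p = 0.0539) were called lower, with all 6 below 0 on every array. The call of Mcm2 was lost without array 1 or 2 of day 21 (adjusted p up to 0.108). Mcm3 measured -0.02, -0.46 and 0.11 at day 4, -0.22, -0.21 and -0.11 at day 8, -0.48, -0.39 and -0.76 at day 15 and -0.62, -0.57 and -0.63 at day 21. Its day 21 arrays lay close together and below all of day 4. It averaged -0.54 ± 0.19 at day 15 (adjusted p = 0.0063) and -0.61 ± 0.03 at day 21 (adjusted p = 0.00193).

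Mcm6 measured -0.20, -0.46 and 0.08 at day 4, -0.08, -0.13 and -0.20 at day 8, -0.04, -0.04 and -0.85 at day 15 and -0.65, -0.56 and -0.64 at day 21. Its arrays parted at day 15, where only array 3 was far below 0, and it was called at day 21 alone (-0.62 ± 0.05, adjusted p = 0.00953). That call was lost without array 1 of day 21 (-0.60, adjusted p = 0.0676) or array 2 (-0.64, adjusted p = 0.0501). Cdc45, the helicase cofactor, measured 0.12, 0.09 and -0.17 at day 4, 0.16, -0.35 and -0.28 at day 8, -0.32, -0.42 and -0.59 at day 15 and -0.84, -0.85 and -0.59 at day 21. Its day 21 arrays were all below those of days 4 and 8, and array 3 of day 21 met the lowest of day 15. It averaged -0.44 ± 0.13 at day 15 (adjusted p = 0.0201) and -0.76 ± 0.15 at day 21 (adjusted p = 5.32e-04). The day 15 call was lost without any array of that day (adjusted p = 0.0687, 0.118 and 0.078 without arrays 1, 2 and 3, at -0.50, -0.46 and -0.37).

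Not every origin gene lay lower. Cdc6, which loads the helicase, was above 0 on all day 21 arrays (0.16 ± 0.04, adjusted p = 0.357), and Mcm10, which helps to open the origin, averaged 0.03 ± 0.25 (adjusted p = 0.841). Cdc7, the kinase that fires origins, was called lower at day 15 (-0.29 ± 0.12) and day 21 (-0.25 ± 0.16, adjusted p = 0.041). The day 15 call was lost without any array of day 15 (adjusted p up to 0.234). The day 21 call was lost in 9 of the 12 fits without 1 array, those without array 1 or 3 of day 4, array 2 of day 15, or any array of day 8 or day 21 (adjusted p up to 0.299).

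Of the 13 fork genes, 2 were called lower at day 15 and 11 at day 21, against 4.9% and 9.93% of all features. The day 21 count was 3 without array 1 and 5 without array 2 of that day, 5 under quantile normalization and 4 under scaling, and the day 15 count was 1 without array 1 or array 2 of day 15. Rfc5, a clamp loader subunit, measured 0.00, 0.00 and 0.12 at day 4, -0.21, -0.15 and -0.32 at day 8, -0.51, -0.50 and -0.52 at day 15 and -0.95, -0.80 and -0.48 at day 21. Its day 4, day 8 and day 15 arrays formed separate ranges, in falling order, and only array 3 of day 21 reached back to the day 15 level. It averaged -0.51 ± 0.01 at day 15 (adjusted p = 0.00345) and -0.74 ± 0.24 at day 21 (adjusted p = 1.67e-04). Rfc1, the large subunit of the loader, measured 0.20, 0.30 and 0.02 at day 4, 0.29, -0.40 and -0.15 at day 8, -0.07, 0.11 and -0.41 at day 15 and -0.53, -0.36 and -0.88 at day 21. Its arrays scattered at days 8 and 15, and it was called at day 21 only (-0.59 ± 0.27, adjusted p = 0.0109). That call was lost without array 1 (-0.62, adjusted p = 0.056) or array 3 (-0.44, adjusted p = 0.079) of day 21. Rfc3 was the loader gene that was not called at day 21 (-0.06 ± 0.28, adjusted p = 0.777). The day 21 call of Rfc2 was lost in 9 of the 12 fits without 1 array, with adjusted p up to 0.2345. It was also lost under the replicate block, array set as a term, quantile normalization and scaling. That of Rfc4 was lost without any array of day 21 (adjusted p up to 0.0781) and under quantile normalization and scaling.

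Pcna, the sliding clamp, measured 0.19, -0.01 and 0.38 at day 4, -0.18, -0.12 and -0.15 at day 8, -0.18, -0.33 and -0.27 at day 15 and -0.33, -0.40 and -0.32 at day 21. All arrays from day 8 on were below all those of day 4. Pcna was called at day 21 (-0.35 ± 0.05, adjusted p = 0.009), and not without array 1 (-0.36, adjusted p = 0.0532) or array 2 (-0.32, adjusted p = 0.0705) of that day. At day 15 it stood at -0.26 ± 0.07 (adjusted p = 0.0533), and it passed there without array 2 of day 4 (adjusted p = 0.03) or array 3 of day 4 (adjusted p = 0.0383).

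Of the 7 polymerase subunits, 6 were called lower at day 21, where 9.93% of all features were. The histone-fold subunit Pole3 was not called (0.08 ± 0.12, adjusted p = 0.512). The calls of Pola2, Pold1 and Pole2 were lost without array 1 or 2 of day 21, with adjusted p up to 0.18, 0.206 and 0.0896. That of Pole was lost without array 1 of day 21 (adjusted p = 0.0809). Pold2, a subunit of polymerase delta, measured -0.18, -0.13 and 0.04 at day 4, -0.18, -0.19 and -0.27 at day 8, -0.44, -0.31 and -0.15 at day 15 and -0.72, -0.69 and -0.80 at day 21. Its day 21 arrays were below all 9 others. Pold2 averaged -0.30 ± 0.15 at day 15 (adjusted p = 0.0252) and -0.74 ± 0.06 at day 21 (adjusted p = 6.25e-05), and the day 15 call was lost without array 1 (-0.23, adjusted p = 0.208) or array 2 (-0.29, adjusted p = 0.161) of that day. Pola1, the catalytic subunit of polymerase alpha, measured 0.03, -0.03 and 0.28 at day 4, -0.10, -0.17 and -0.27 at day 8, -0.64, -0.24 and -0.22 at day 15 and -0.51, -1.06 and -0.40 at day 21. Array 1 of day 15 and array 2 of day 21 were the lowest of their days. Pola1 averaged -0.37 ± 0.23 at day 15 (adjusted p = 0.0759, and 0.0368 without array 2 of day 21) and -0.66 ± 0.35 at day 21 (adjusted p = 0.00333). The 2 probes of Pole2 did not match at day 21, at -0.74 and 0.13, and Pole2 was the only member whose probes differed by over 0.5 there.

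The 11 genes of G1 and S phase entry went in both directions, with 3 called lower and 2 higher at day 21. Of all features, 9.93% were called lower and 8.78% higher there. The higher calls were Ccnd2, which held without each array, and Ccne2, which did not, and the lower count was 2 without array 1 or array 2 of day 21. Ccnd2, a D cyclin that activates Cdk4 and Cdk6, measured 0.25, 0.45 and 0.32 at day 4, 0.83, 0.84 and 1.26 at day 8, 2.04, 2.13 and 1.19 at day 15 and 1.74, 1.72 and 1.92 at day 21. Days 4, 8 and 15 stood in rising order, except that array 3 of day 15 was lower than array 3 of day 8. Ccnd2 averaged 0.97 ± 0.25 at day 8 (adjusted p = 0.0132), 1.79 ± 0.52 at day 15 (adjusted p = 3.99e-05) and 1.79 ± 0.11 at day 21 (adjusted p = 1.81e-05). It was above 0 on all 12 arrays. Its relatives were not called at any day: Ccnd1 measured -0.24, -0.45 and -0.16 at day 21 (-0.29 ± 0.15, adjusted p = 0.0725) and Ccnd3 0.20, 0.10 and 0.55 (0.28 ± 0.24, adjusted p = 0.19). Ccnd1 was 0.07, -0.17 and 0.28 at day 4, 0.02, -0.04 and -0.27 at day 8 and -0.06, -0.34 and 0.00 at day 15, with arrays on both sides of 0 at days 4 and 8.

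The E cyclins activate Cdk2 to start S phase. Ccne1 measured 0.02, -0.45 and 0.26 at day 4, -0.45, -0.41 and -0.61 at day 8, -0.77, -1.08 and -0.64 at day 15 and -1.03, -1.09 and -0.87 at day 21. All day 15 and day 21 arrays were below all those of days 4 and 8. It averaged -0.83 ± 0.23 at day 15 (adjusted p = 0.0014) and -0.9985 ± 0.12 at day 21 (adjusted p = 2.02e-04). At day 8 it stood at -0.49 ± 0.10 (adjusted p = 0.0563), and passed there without array 2 (adjusted p = 0.0263) or array 3 of day 4 (adjusted p = 0.039) or array 3 of day 15 (adjusted p = 0.0464). Ccne2 measured 0.30, 0.35 and 0.09 at day 21 and was called higher there (adjusted p = 0.0479). That call was lost in 8 of the 12 fits without 1 array, those without array 1 of day 4, any array of day 8, or array 1 or 2 of day 15 or of day 21, with adjusted p up to 0.238. It was also lost under the replicate block, array set as a term, quantile normalization and scaling. The test of the difference between these relatives was not run.

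Mybl2 encodes B-Myb, a transcription factor that is itself an E2F target and takes part in control of mitosis genes. It measured -0.55, 0.20 and -0.15 at day 4, -0.53, -0.56 and -0.72 at day 8, -1.21, -1.31 and -0.50 at day 15 and -1.52, -1.63 and -1.44 at day 21. Day 21 lay below all other arrays, and array 3 of day 15 stayed at the day 8 level. Mybl2 had the lowest day 21 mean of all 81 genes (-1.53 ± 0.09, adjusted p = 5.08e-05), with -1.01 ± 0.44 at day 15 (adjusted p = 0.00172). At day 8 it stood at -0.60 ± 0.10 (adjusted p = 0.0597), and passed without array 2 of day 4 (adjusted p = 0.0435) or array 3 of day 15 (adjusted p = 0.0191). Cdk6, a partner of D cyclins, measured 0.31, -0.57 and -0.10 at day 4, -0.09, -0.19 and 0.03 at day 8, -0.08, -0.18 and -0.53 at day 15 and -0.57, -0.60 and -0.32 at day 21. Its day 4 arrays spanned most of the range of all 12. It was called at day 21 (-0.50 ± 0.16, adjusted p = 0.0253), and not without array 1 (-0.46, adjusted p = 0.139) or array 2 (-0.44, adjusted p = 0.145) of that day. Its close relative Cdk4 stood at 0.29 ± 0.12 (adjusted p = 0.119) and Cdk2 at -0.03 ± 0.12 (adjusted p = 0.85).

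**Figure D3:**
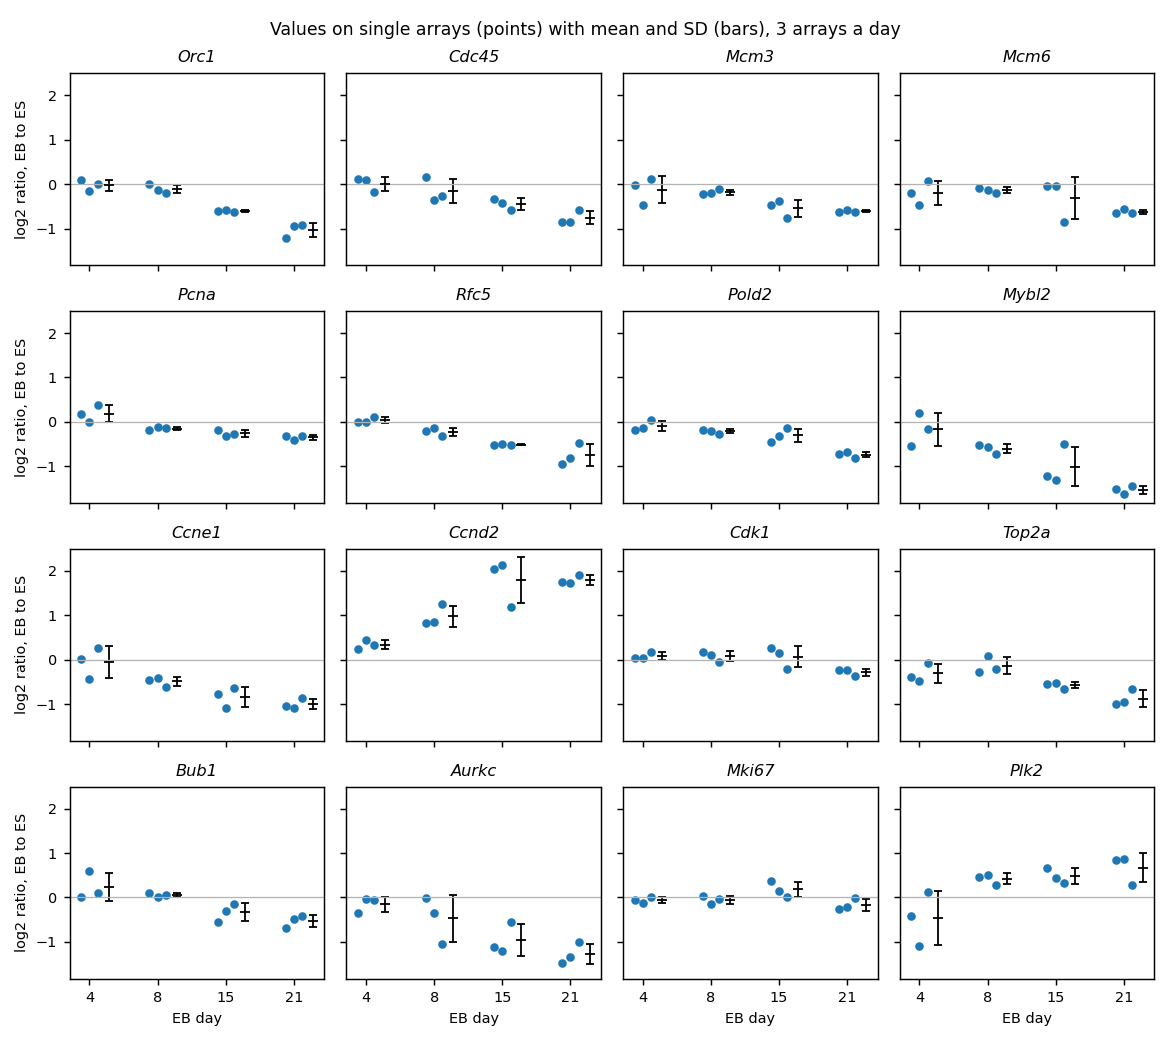
Log2 ratio of EB to ES (vertical) on each array (points) with mean and SD (bars) by EB day (horizontal) for 16 members, on 1 scale. Orc1, Rfc5, Ccne1 and Mybl2 step down with the days, Ccnd2 steps up to 1.79 at days 15 and 21, and Mki67 stays within 0.37 of 0 on all arrays.

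The G2 and mitosis genes are introduced with the promoters of Cdc20, Kif11 and Top2a, which hold a CHR-type core next to CCAAT boxes, the arrangement known for genes of this phase. Capitals mark the CHR-type core TTTGAA and the CCAAT box, each also as its reverse complement, in the 180 bases before the start on GRCm38.p6, from RefSeq. The Cdc20 window is chr4:118437344-118437523 on the minus strand, the Kif11 window chr19:37376202-37376381 on the plus strand and the Top2a window chr11:99024190-99024369 on the minus strand.
Cdc20: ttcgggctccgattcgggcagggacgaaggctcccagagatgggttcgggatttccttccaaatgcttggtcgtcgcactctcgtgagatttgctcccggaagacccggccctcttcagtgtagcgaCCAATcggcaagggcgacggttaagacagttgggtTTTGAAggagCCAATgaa
Kif11: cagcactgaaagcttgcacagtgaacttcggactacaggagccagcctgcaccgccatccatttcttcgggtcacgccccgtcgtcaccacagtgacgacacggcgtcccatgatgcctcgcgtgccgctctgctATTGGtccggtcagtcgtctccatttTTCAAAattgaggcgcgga
Top2a: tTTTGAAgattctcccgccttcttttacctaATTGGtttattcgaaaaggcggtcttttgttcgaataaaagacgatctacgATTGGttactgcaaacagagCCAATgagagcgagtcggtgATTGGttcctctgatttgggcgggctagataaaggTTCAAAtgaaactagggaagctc

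In Cdc20 the CHR-type core lay 18 to 13 bases before the start and in Kif11 19 to 14 bases, while Top2a held 1 core 23 to 18 bases and another 179 to 174 bases before it. In the windows from 250 bases before to 50 after the start a CHR-type core was found in 10 of 18 promoters of mitosis members (55.6%). It was found in 15.6% of those of replication members and in 13.6% of those of genes on the array. The windows of Bub3 overlap and hold the same core. By call, a CHR-type core was found in 32.4% of promoters of members called lower at day 21 and 20.5% of those of the other members. The windows of Aurkc and Bub1, called lower, held no such core, while those of Aurka, Plk1 and Mki67, not called at day 21, did. CCAAT was found in 83.3% of promoters of mitosis members, 56.2% of those of replication members and 37.6% of those of genes on the array. These shares describe sequence, and their part in the ratios was not tested.

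**Figure D4:**
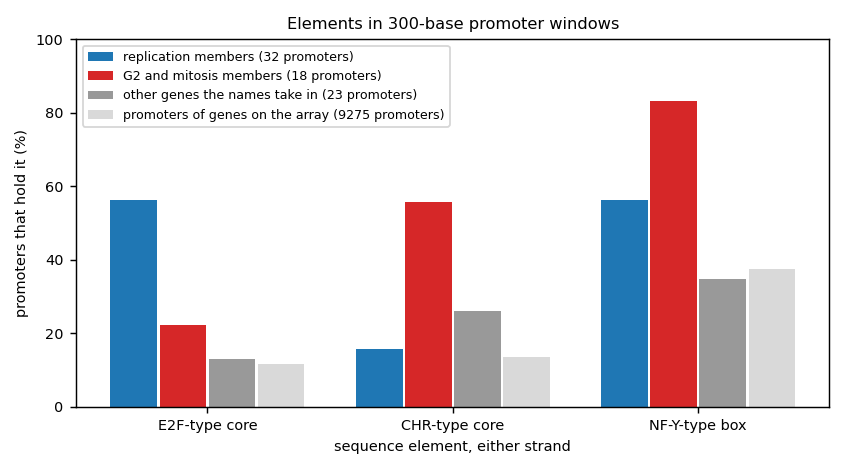
Share of promoters (vertical, percent) that hold each of 3 sequence elements on either strand (horizontal) between 250 bases before and 50 after the start, for promoters of replication members (32), mitosis members (18), the other genes that the names take in (23) and genes on the array (9275). The E2F-type bar is highest for replication members (56.2%) and the CHR-type bar for mitosis members (55.6%), while the other genes hold them in 13.0% and 26.1%.

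Of the 20 genes of G2 and mitosis, 10 were called lower at day 21, where 9.93% of all features were. They were Aurkc, Top2a, Cdc20, Bub1, Bub1b, Kif11, Ccna2, Aurkb, Cdk1 and Bub3. The count was 4 under quantile normalization and 5 under scaling. Calls of Bub1b, Ccna2, Aurkb, Cdk1 and Bub3 were lost under both, and that of Cdc20 under quantile normalization. The calls of Bub1b, Ccna2 and Kif11 were lost without array 1 or 2 of day 21, with adjusted p up to 0.12, 0.111 and 0.0756. That of Bub3 was lost in 7 of the 12 fits without 1 array, with adjusted p up to 0.21. Aurkc, an Aurora kinase best known from germ cells and early embryos, measured -0.35, -0.04 and -0.07 at day 4, -0.02, -0.36 and -1.04 at day 8, -1.11, -1.20 and -0.54 at day 15 and -1.47, -1.34 and -1.01 at day 21. Day 21 lay below all of day 4, and the arrays of day 8 spread over 1 unit. Aurkc averaged -0.95 ± 0.36 at day 15 (adjusted p = 0.00486) and -1.27 ± 0.23 at day 21 (adjusted p = 4.49e-04), and the day 15 call was lost without array 1 (-0.87, adjusted p = 0.0565) or array 2 (-0.83, adjusted p = 0.0709) of that day. Its relatives stood closer to 0 at day 21, Aurkb at -0.35 ± 0.10 (adjusted p = 0.0452, a call lost in 9 of the 12 fits without 1 array, all but those without array 2 or 3 of day 4 or array 3 of day 15) and Aurka at -0.04 ± 0.17 (adjusted p = 0.766).

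Top2a, the topoisomerase that untangles chromosomes before they part, measured -0.38, -0.47 and -0.07 at day 4, -0.28, 0.08 and -0.20 at day 8, -0.54, -0.51 and -0.66 at day 15 and -1.004, -0.96 and -0.66 at day 21. Day 15 and day 21 lay below all of days 4 and 8. Top2a averaged -0.57 ± 0.08 at day 15 (adjusted p = 0.00439) and -0.88 ± 0.19 at day 21 (adjusted p = 1.57e-04). Cdc20, which activates the anaphase-promoting complex, measured -0.14, -0.79 and 0.12 at day 4, 0.02, -0.14 and -0.11 at day 8, -0.33, -0.47 and -0.70 at day 15 and -0.55, -0.54 and -0.74 at day 21. Array 2 of day 4 was the lowest of all 12, so days 4 and 21 overlapped. Cdc20 averaged -0.50 ± 0.19 at day 15 (adjusted p = 0.0348) and -0.61 ± 0.11 at day 21 (adjusted p = 0.00844). The day 15 call was lost without array 1 (-0.58, adjusted p = 0.0907), array 2 (-0.51, adjusted p = 0.17) or array 3 (-0.40, adjusted p = 0.136) of day 15, or array 2 of day 8 (-0.50, adjusted p = 0.0505).

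Bub1, a kinase of the spindle checkpoint, measured 0.01, 0.59 and 0.11 at day 4, 0.11, 0.02 and 0.06 at day 8, -0.55, -0.31 and -0.14 at day 15 and -0.69, -0.49 and -0.41 at day 21. All arrays of days 15 and 21 were below 0 and all those of days 4 and 8 above it. Bub1 averaged -0.33 ± 0.20 at day 15 (adjusted p = 0.0757) and -0.53 ± 0.14 at day 21 (adjusted p = 0.00622). The day 21 call was lost without array 1 of that day (-0.45, adjusted p = 0.0696), and day 15 passed without array 2 of day 4 (adjusted p = 0.0311) or array 3 of day 15 (adjusted p = 0.0495).

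Cdk1, the kinase that drives mitosis, measured 0.04, 0.03 and 0.18 at day 4, 0.18, 0.10 and -0.05 at day 8, 0.26, 0.15 and -0.20 at day 15 and -0.24, -0.24 and -0.38 at day 21. It stayed near 0 until day 15 and its day 21 arrays were below all 9 others. The day 21 call (-0.28 ± 0.08, adjusted p = 0.0452) was lost without any array of day 21 (adjusted p = 0.133, 0.124 and 0.171 without arrays 1, 2 and 3, at -0.31, -0.31 and -0.24). It was also lost without array 1 or 3 of day 4 (adjusted p = 0.0595 and 0.052), array 1 or 2 of day 8 (0.0515 and 0.063) or array 2 of day 15 (0.0577), at the same mean.

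Mki67, the proliferation antigen Ki-67, was not called at any day. It measured -0.06, -0.11 and 0.01 at day 4, 0.03, -0.15 and -0.04 at day 8, 0.37, 0.15 and 0.02 at day 15 and -0.26, -0.22 and -0.02 at day 21. Its day 21 mean was -0.17 ± 0.13 with a 95% interval of -0.35 to 0.01 (adjusted p = 0.181), which includes 0. Of the rest, Cdc16, a subunit of the anaphase-promoting complex, was called higher at day 15 (0.97, 0.74 and -0.11, adjusted p = 0.0466), where array 3 was below 0. That call was lost in 10 of the 12 fits without 1 array, all but those without array 3 of day 15 or of day 21, with adjusted p up to 0.334, and under quantile normalization and scaling. Cdc16 is singled out after its values were seen. Plk1, Plk4, Cdc27, Cdc25b, Cdc25c, Ccnb3 and Ccna1 were not called at day 21.

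The 21 other genes that the names take in had a median of -0.02 at day 21, with 1 called lower and 1 higher. Of all features, 9.93% were called lower and 8.78% higher there. Cdc5l, a splicing factor, measured -0.21, -0.29 and -0.04 at day 4, -0.32, -0.19 and -0.34 at day 8, -0.52, -0.51 and -0.34 at day 15 and -0.82, -0.38 and -0.25 at day 21. It was below 0 on all 12 arrays, and array 1 was the lowest of day 21. It averaged -0.46 ± 0.10 at day 15 (adjusted p = 0.0135) and -0.48 ± 0.30 at day 21 (adjusted p = 0.00615). The day 15 call was lost without array 1 (-0.42, adjusted p = 0.105) or array 2 (-0.43, adjusted p = 0.118) of that day, and the day 21 call without array 1 (-0.31, adjusted p = 0.0699).

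Plk2, a Polo-like kinase induced by stress, measured -0.42, -1.08 and 0.12 at day 4, 0.46, 0.51 and 0.28 at day 8, 0.67, 0.44 and 0.32 at day 15 and 0.84, 0.87 and 0.29 at day 21. All arrays from day 8 on were above those of day 4. Plk2 averaged 0.67 ± 0.33 at day 21 (adjusted p = 0.0217), and the call was lost without array 1 (0.58, adjusted p = 0.145) or array 2 (0.56, adjusted p = 0.148) of that day. At day 15 (0.47 ± 0.18, adjusted p = 0.108) it passed without array 2 of day 4 (adjusted p = 0.0391). The other 19 were not called at day 21, among them the transcription kinases Cdk7, Cdk9, Cdk12 and Cdk13 and the recombination helicase Mcm8.

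Differences between days were tested as contrasts of the ratios. Between neighbouring days limma called 0 members: 0 of 81 from day 4 to day 8 (0.0% of all features called, 8 members at an unadjusted p under 0.05), 0 from day 8 to day 15 (0.178%, with 0.0468% lower and 0.131% higher, and 17 members) and 0 from day 15 to day 21 (0.00936%, 10 members). Without array 3 of day 15, limma called 2 members from day 8 to day 15. From day 4 to day 21 it called 17 members, against 5.84% of all features: 15 lower (3.22% of all features) and 2 higher (2.62%), Ccnd2 and Plk2. These fell in 10 of the 29 replication genes (4 origin and 6 fork), 3 mitosis genes (Aurkc, Bub1 and Top2a) and Mybl2 and Ccne1 of the G1 group. The count was 8 without array 1 of day 4, 10 without array 3 of day 4, 6 without array 1 of day 21 and 8 without array 2 of day 21. In those fits, in the same order, 3, 5, 3 and 4 replication genes and 2, 1, 0 and 1 mitosis genes were called.

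The largest drops between days 4 and 21 were in Mybl2 (-1.36, 95% interval -1.82 to -0.90, adjusted p = 0.00384), Aurkc (-1.12, -1.65 to -0.59, adjusted p = 0.0189) and Orc1 (-1.002, -1.24 to -0.76, adjusted p = 6.50e-04). Ccnd2 rose by 1.45 (0.99 to 1.91, adjusted p = 0.00272). All 3 day 21 arrays lay below all 3 day 4 arrays for 18 of the 29 replication genes and 7 of the 20 mitosis genes, where 12.2% of all features did so. Without 1 array, the calls of Mybl2, Orc1, Ccne1, Ccnd2, Rfc5 and Pold2 held in each of the 12 fits. The call of Aurkc was lost without array 2 (adjusted p = 0.056) or 3 of day 4 (0.0547) or array 1 (0.0927) or 2 of day 21 (0.0726), with differences of -1.06, -1.08, -1.02 and -1.09.

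Other calls between days 4 and 21 rested on single arrays in the same way. That of Cdc45 (-0.77) was lost without array 1 of day 4 (adjusted p = 0.0535) or array 1 (0.0554) or 2 of day 21 (0.0518). Pola1 (-0.75) was lost without array 1 (0.0685) or 3 of day 4 (0.0807) or array 1 (0.0583) or 2 of day 21 (0.0859). Pcna (-0.54) was lost without those same 4 arrays (0.0573, 0.0505, 0.0547 and 0.0621). Rfc1 (-0.76) was lost without any array of day 4 or day 21 or array 1 of day 15, with adjusted p between 0.053 and 0.113. Top2a (-0.57) was lost without array 1 or 3 of day 4, or array 1 or 2 of day 15 or of day 21, with adjusted p between 0.0522 and 0.15. Bub1 (-0.76) was lost without array 1 of day 21 (0.0754). Mcm5 (-0.53) was lost without array 1 of day 4 or array 1 of day 21, with adjusted p up to 0.064. Mcm7 (-0.53) was lost without array 1 or 3 of day 4 or array 1 or 2 of day 21 (up to 0.0849), and under scaling. Pole2 (-0.40) was lost in 7 of the 12 fits without 1 array (up to 0.136). It was also lost under the replicate block, quantile normalization and scaling. Plk2 (1.12) was lost without array 1 of day 4 (0.0676) or array 1 (0.0992) or 2 of day 21 (0.0931). Without array 2 of day 4, the differences of Mcm3 (-0.65, adjusted p = 0.0142) and Cdc20 (-0.60, adjusted p = 0.0308) passed, which they did not over all arrays (-0.48 and -0.34).

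Over all 4 days together, the F-test for any difference called 10 members against 2.9% of all features, and 2 without array 1 or array 2 of day 21. It called 4 without array 1 or 3 of day 4 or array 2 of day 8, 5 without array 1 or 2 of day 15 and 6 without array 1 of day 8.

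**Figure D5:**
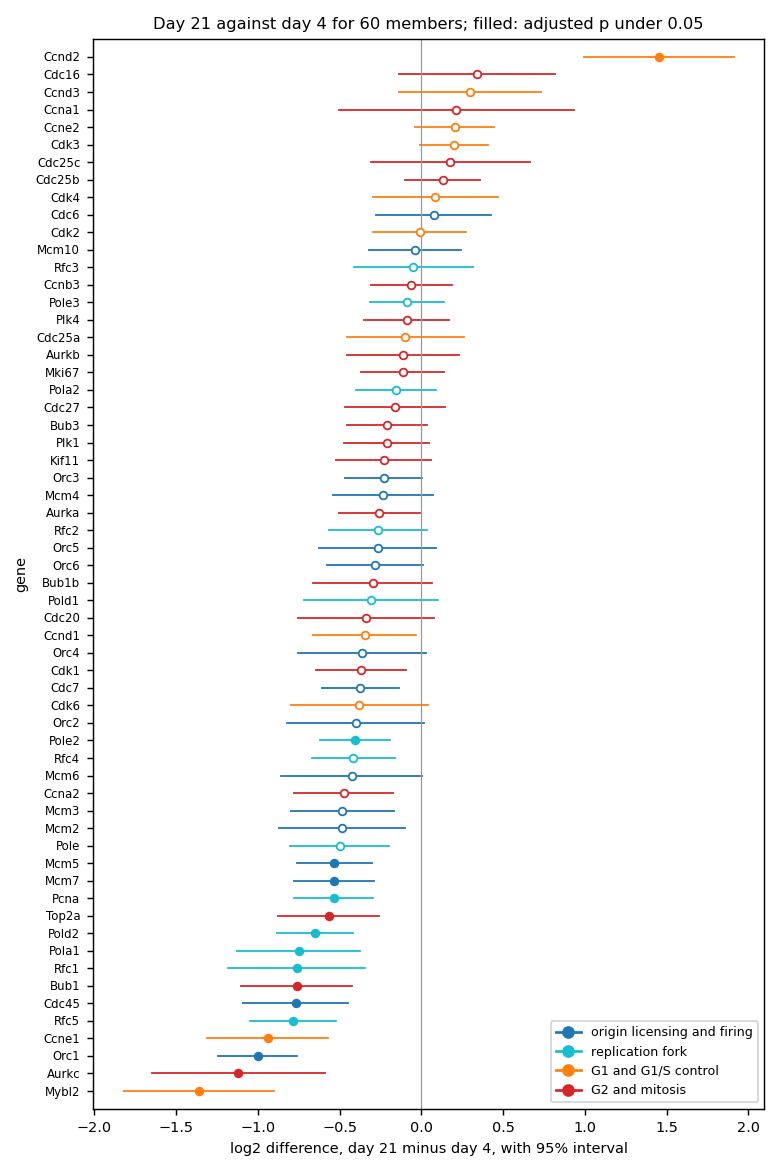
Difference in log2 ratio between day 21 and day 4 (horizontal, day 21 minus day 4, with 95% intervals) for each member of the 4 role groups (vertical), coloured by role, with called genes filled. Mybl2, at -1.36, and Aurkc, at -1.12, stand at the low end and Ccnd2, at 1.45, alone at the high end, while Mki67 and Cdk2 span 0.

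Other genes of the same pathways were read from lists that hold no member. Beside the counts at day 21 stand the shares of all features called there, 9.93% lower and 8.78% higher. How the counts of these lists and of the cell type markers change without single arrays was not examined. Over all features, the day 21 calls fell from 1999 to 753 or 872 without array 1 or array 2 of that day. Of 22 measured replication genes beyond the members, 13 were called lower and 0 higher at day 21, with a median of -0.34 (per array -0.39, -0.37 and -0.30). Among them Dbf4, the partner of Cdc7, measured -1.07, -0.90 and -0.90 (-0.96 ± 0.10, adjusted p = 4.92e-05). Nasp, a histone chaperone, averaged -0.77 ± 0.41 and Rpa1, which binds single-stranded DNA, -0.70 ± 0.23. Of 37 further mitosis genes, 24 were called lower and 0 higher, with a median of -0.37 (per array -0.40, -0.36 and -0.33). Kif18a, a kinesin that aligns chromosomes, averaged -0.76 ± 0.16 (adjusted p = 6.09e-05), while Anln (-0.70 ± 0.44) and Pttg1, the securin that holds back separase (-0.68 ± 0.55), had array 3 nearer to 0, at -0.22 and -0.05.

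Of 12 E2F and pocket protein genes, 2 were called lower at day 21, a share near that of all features, E2f4 (-0.47 ± 0.26) and E2f5 (-0.30 ± 0.12), with a median of -0.06. Of 15 inhibitor genes, 5 were called higher and 2 lower. The Cdk inhibitor genes Cdkn1c and Cdkn1a averaged 0.79 ± 0.09 (adjusted p = 6.07e-04) and 0.70 ± 0.23 (adjusted p = 0.00162), and the antiproliferative gene Btg1 averaged 0.75 ± 0.07 (adjusted p = 0.00335). Of 11 DNA damage checkpoint and repair genes, 7 were called lower and 0 higher. The mismatch repair gene Msh6 measured -1.54, -1.39 and -1.28 (-1.40 ± 0.13, adjusted p = 6.70e-05), the checkpoint kinase Atr averaged -0.54 ± 0.28 and its target Chek1 -0.54 ± 0.19.

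Markers of cell types were called from day 8 on. At day 8, 4 of 11 ES cell markers were called lower and 5 of 13 endoderm and fetal liver markers higher. The shares of all features were 1.06% and 1.23%. The ES cell and endoderm lists hold Zfp42 and Afp, from which the sign was read, so their directions are no independent support for it. No replication or mitosis gene was called at day 8 with all arrays as deposited, but 4 members were lower under quantile normalization or scaling. Calls over all features at day 8 fell from 244 to 14 or 6 without array 2 or array 3 of that day. The order of these changes was not tested. Of the ES cell markers 9 were called lower at day 21 (median per array -1.24, -0.92 and -0.88). Of the endoderm and fetal liver markers 9 were called higher (1.44, 1.18 and 0.60), as were 8 of 11 mesenchyme markers (1.18, 0.92 and 1.08), 4 of 8 heart muscle markers (0.47, 0.43 and 0.29), 4 of 6 macrophage markers (0.30, 0.28 and 0.56) and 3 of 7 endothelial markers (0.34, 0.47 and 0.15). In contrast, 1 of 11 mesenchyme markers, 1 of 6 erythroid markers and 1 of 8 neuron markers were called lower, and none of the erythroid and neuron markers higher, counts near the share of all features. The part of this mixture of cells in the ratios of the replication and division genes was not tested.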

How the data were processed

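RNA of embryoid bodies and of R1 ES cells was dye-labelled and hybridised together, 1 pair to an array, per the labels' protocols. The values are log2 ratios as deposited, normalized by the authors per the labels, which do not settle the base. The scanner, background correction, filters and normalization method are not given in the sources used here, so no filter on dim spots and no other background correction could be tried. Such steps could shrink ratios of dim genes. Intensities were not used, and the number of arrays limits the precision.

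Of 11520 probes, 10043 had 1 gene symbol in the platform annotation, 29 several and 1448 none. Probes of a gene were averaged, which left 10689 features, and 13 members had more than 1 probe. All 12 arrays entered 1 fit of limma 3.58.1 in R 4.3.3, with a mean for each day tested against 0 and as contrasts between days, moderated with a prior of 4.35 degrees of freedom on 8 residual ones. Figures were drawn with matplotlib 3.10.9. A test against 0 leaves out the control's own spread. The labels name no batch. Replicate numbers were taken from the labels and were not treated as pairs, since arrays of 1 number did not all deviate together.

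The members and lists were chosen with earlier results of these data known. All members may be named, and values on every array were given for up to 4 called members of each role with the largest day 21 mean and for Mki67, Top2a, Pcna, Mybl2, Cdk1, Ccne1 and Ccnd1. Up to 3 called genes of each other pathway list were named. The alternatives were quantile normalization, scaling, array weights, a replicate block, array set as a term, fewer days or features in the fit, the turned sign, leaving out each array, and, chosen after seeing the data, each array set alone. Promoters came from RefSeq (GRCm38.p6).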

Additional observations from a re-analysis of the deposited data

Results flagged for a closer look

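The members below stand here because limma's contrast between the ratios of day 21 and day 4 passed the threshold, so that the effect against ES cells differed between these days. Values are day 21 minus day 4 on the log2 scale. Among replication genes the difference was -1.002 in Orc1, -0.79 in Rfc5, -0.77 in Cdc45, -0.76 in Rfc1, -0.75 in Pola1 and -0.65 in Pold2. It was -0.54 in Pcna, -0.53 in both Mcm5 and Mcm7, and -0.40 in Pole2, whose probes did not match each other. Among genes of G1 and S phase entry it was -1.36 in Mybl2, -0.94 in Ccne1 and 1.45 in Ccnd2. Among mitosis genes it was -1.12 in Aurkc, -0.76 in Bub1 and -0.57 in Top2a. Plk2, among the other genes, differed by 1.12. Groups of 3 arrays are too small for a test of single arrays that stand apart.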

How the results depend on the processing

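No call of a gene with values printed on all 12 arrays changed direction under the alternatives listed above, other than the turned sign. The turned sign exchanged higher and lower and left every count as it was. For the other members directions were not compared. Among them Cdc16, called higher at day 15 over all arrays, was -0.11 on the 1 day 15 array of the set of 5. A fit of every probe on its own gave 37 members at day 21, and directions were not compared there. Of 47 calls of genes with values printed on all 12 arrays, 25 held without each of the 12 arrays. Under the other settings 336 values of called genes stayed past the threshold, 87 did not and 0 reversed. Leaving out each array in turn gave 0 members at day 4, 0 to 4 at day 8, 8 to 22 at day 15, 15 to 41 at day 21, 0 to 2 from day 8 to day 15, 6 to 19 from day 4 to day 21 and 2 to 13 for the F-test, and 0 for the other neighbouring days. Quantile normalization gave 1 member at day 4, 5 at day 8, 20 at day 21 (all among the 39) and 3 for the F-test. Scaling gave 5 at day 8, 19 at day 21 (all among the 39), 10 from day 4 to day 21 and 3 for the F-test. Array weights gave 1 at day 4, 8 at day 8, 36 at day 15, 8 from day 8 to day 15 and 25 for the F-test. With only the days compared in the fit, and so fewer residual degrees of freedom, 0 were called at day 8, 7 at day 15 and 9 from day 4 to day 21, and the F-test was not run. Array set as a term gave 5 at day 8, and features with 1 gene symbol alone gave 2. The set of 7 arrays alone gave 0 at day 8 and 2 from day 8 to day 15. The set of 5 alone gave 2 at day 8, 0 at day 15, 3 at day 21, 0 from day 4 to day 21 and 0 for the F-test, with fewer arrays. A lone array of a day was assumed to vary like the other days. For the choices other than fewer arrays or days the cause was not tested. Arrays of 1 number correlated at -0.15 to 0.33 in their deviations, with 7 of 18 pairs over 0.1, against 7 of 36 pairs of different number. By array set it was 10 of 27 pairs within a set and 4 of 27 between sets. In all, 6 of 12 arrays correlated best with their own number. The replicate block gave 2 members at day 8, 17 at day 15, 34 at day 21 and 17 from day 4 to day 21.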

Other observations

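Some members had arrays of a day far apart, and these were singled out after their values were seen. Cdk13, a kinase of transcription elongation, measured 0.33, 0.53 and -1.03 at day 4 and 0.18, -0.09 and -1.02 at day 8, with array 3 alone far below 0 on both days. It lay within 0.39 of 0 on every array of days 15 and 21. Ccna1, the germ cell cyclin A, measured -0.96, 0.62 and -0.13 at day 15 and 0.19, 0.73 and -0.39 at day 21, and was not called at any day. Mcm3ap, which is named for its binding to Mcm3 and acts in mRNA export, measured -1.25 on array 2 of day 4 and between -0.40 and 0.18 on all other arrays.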
